A study of Mus musculus with 18 samples.

Results

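The comparison described here sets macrophages that met CpG before TNF (CT) against macrophages that met polyI:C before TNF (PT). It rests on 4 libraries, CT replicates 1 and 2 and PT replicates 1 and 2, chosen by their treatment labels from 18 in the series. The assay was ATAC-seq, which marks accessible chromatin by letting a transposase insert adapters into open DNA, and the table covers 53796 regions. The cells were wild-type C57BL/6 bone marrow-derived macrophages from mice 6 to 12 weeks old, grown with M-CSF. CT cells received CpG (100 nM) for 4 h and then TNF (10 ng/mL) for 4 h, and PT cells received polyI:C (1 µg/mL) for 4 h and then the same TNF. The other libraries used were CpG then LPS (CL), polyI:C then LPS (PL, LPS at 1 ng/mL), medium then CpG (MC), medium then polyI:C (MP), medium then TNF (MT) and medium throughout (MM), with 2 libraries each. The 2 libraries of medium then LPS (ML, 1 ng/mL) entered only the shared estimate of the spread. The MC and MP cells were collected 4 h after their agent was added, and the CT and PT cells 8 h after theirs. The labels do not say whether the replicates were separate mice or cultures, so the p-values reflect only how far the 18 libraries vary, and that variation may be technical.

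CpG DNA is sensed in endosomes by the receptor Tlr9, which signals through the adaptor Myd88 to NF-kB and AP-1. PolyI:C imitates double-stranded RNA and is sensed by endosomal Tlr3, which uses the adaptor Ticam1 (TRIF), and by cytosolic Ifih1 (MDA5). Both RNA routes induce type I interferon, whose receptor drives STAT and IRF factors onto interferon-stimulated response elements (ISREs). TNF acts on its own receptors and again engages NF-kB, so the cells compared here differed in the first signal and shared the second.

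Reads in the regions were 4931830 and 5906784 in the CT libraries, against 4993428 and 3317412 in the PT libraries, with medians of 63 and 75 reads per region in CT and 63 and 42 in PT. Regions at genes that define macrophages were open in all 4 libraries: at Csf1r, the M-CSF receptor, accessibility was 5.10 and 4.93 log2 CPM in CT, against 5.26 and 4.74 in PT. At the regulator Spi1 (PU.1) it was 5.30 and 5.71 log2 CPM in CT, against 5.46 and 5.08 in PT. The PT libraries agreed less well with each other than those of any other group. Their log2 values correlated at 0.919 across regions, against 0.960 for the CT pair, and the SD of the difference between the paired libraries was 0.431 in PT and 0.298 in CT. The count of calls that stayed when either PT library was left out is therefore given beside most counts below.

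CpG and polyI:C left different landscapes after TNF. With an adjusted p under 0.05 as the threshold (limma, Benjamini-Hochberg over all regions), 17962 regions differed between CT and PT, 33.4% of those tested. Of these, 9691 were higher in CT (18%) and 8271 were lower (15.4%). The median log2 difference over all regions was 0.02. Both CT libraries lay above both PT libraries at 31.7% of all regions and below both at 30.3%. Changes of at least 2-fold were called at 2158 regions higher and 1715 lower in CT.

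How many regions passed depended on the libraries that gave the spread and on single libraries. With only CT and PT fitted, 8063 regions were called. Without PT replicate 2, the shallowest of the 4 libraries, 8778 regions were called, and without CT replicate 2 there were 7891. Without PT replicate 1 there were 22708. A narrower set comprised the regions called in the same direction with both PT libraries and with either one left out, here termed held, a rule added after the data had been seen. It held 6953 regions (12.9%), with 3812 higher in CT (7.09%) and 3141 lower (5.84%). Of the held regions, 78.5% were also called with either CT library left out, giving 5459 regions called whichever of the 4 libraries was omitted. Among all called regions, 21 differed in sign between the fits with 1 PT library each.

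**Figure D1:**
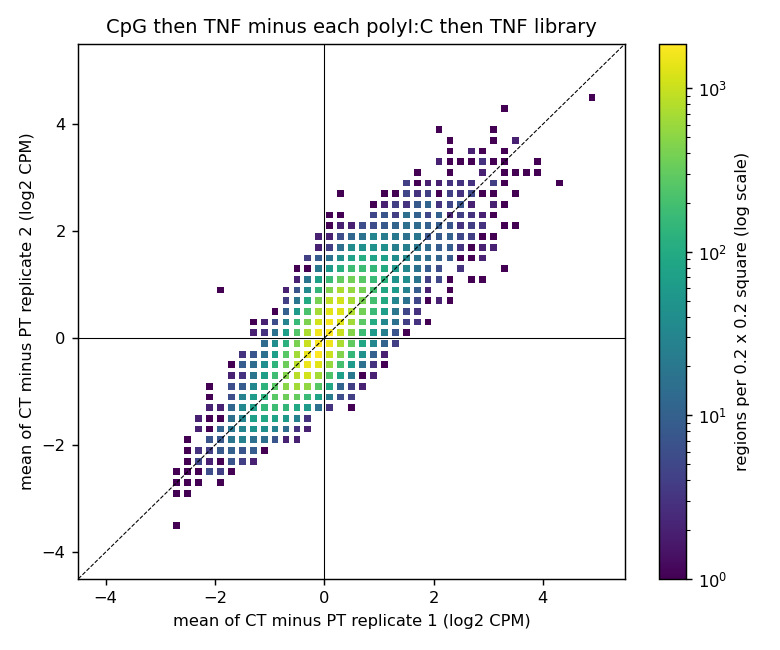
The mean of CT minus PT replicate 1 (x axis) and minus PT replicate 2 (y axis), both in log2 CPM, over 53796 regions in squares coloured by the number of regions on a log scale. Most of the large differences have the same sign against both PT libraries but scatter about the dashed line of equal values. Smaller differences scatter about it too, and many of them differ in sign.

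Most of the larger differences were called with either PT library left out. Of the called regions with a change of at least 2-fold, 1872 of the 2158 higher in CT and 1400 of the 1715 lower in CT were held. PT replicate 2 lay below PT replicate 1 over the regions of several gene lists, by a median of 0.31 on the log2 scale at ribosomal protein genes, 0.25 at macrophage lineage genes and 0.24 at NF-kB genes. At genes of T and NK cells, B cells and dendritic cells it lay above PT replicate 1 by medians of 0.17, 0.27 and 0.25. The CT pair differed the opposite way. CT replicate 2 minus CT replicate 1 had medians of 0.18, 0.06 and 0.06 at the ribosomal, lineage and NF-kB lists. At the T and NK, B and dendritic cell lists they were -0.06, -0.23 and -0.07. The rule for held calls leaves out PT libraries only. The part of these shifts in the counts below was not tested. Called regions given below with their own values were held, unless a lost call is stated.

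The 15 largest rises after CpG, taken 1 per gene, lay inside or between genes, except that in Slc13a3 within 1 kb of a gene end. They ranged from 3.12 to 4.70 on the log2 scale, and all 15 were held. The largest was in Fggy, a gene for a carbohydrate kinase, at chr4:95736571-95737072 (mm10), with 5.10 and 5.19 log2 CPM in CT, against 0.28 and 0.60 in PT. The log2 difference was 4.70 (SE 0.26, limma adjusted p = 6.65e-16, or 2.61e-07 with only CT and PT fitted). The 2 groups did not overlap, and the PT libraries had 3 reads each there, against 166 and 212 in CT.

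Transcription factor genes were among them. A region inside Ikzf1, which encodes the lymphoid and myeloid regulator Ikaros, at chr11:11744253-11744754, had 5.23 and 5.17 log2 CPM in CT, against 1.27 and 1.97 in PT (log2 difference 3.58, SE 0.24, limma adjusted p = 3.1e-13). A region inside Batf, a basic leucine zipper partner of Jun factors, at chr12:85703383-85703884, had 4.19 and 4.37 log2 CPM in CT, against 0.50 and 1.28 in PT (log2 difference 3.39, SE 0.31, limma adjusted p = 2.1e-10). The PT values were close to those of TNF alone, since MT libraries had 1.56 and 1.64 log2 CPM at Ikzf1 and 0.70 and 0.69 at Batf.

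The other 12 rises were at Cinp, Jade2, Svil, Rnf24, Eml2, Wdfy3, Clec16a, Skap2, Trerf1, Uaca, Slc13a3 and Pik3r5. Skap2 encodes an adaptor used in integrin signalling of myeloid cells, and Pik3r5 a regulatory subunit of the class I phosphoinositide 3-kinase downstream of G protein-coupled receptors. At Jade2 the PT libraries had 3 reads in all, against 123 in CT, a ratio of 31.5 (95% exact interval 10.5 to 155, counting error only). At Pik3r5 the values were 4.04 and 4.30 log2 CPM in CT, against 1.49 and 0.60 in PT, and the log2 difference of 3.12 was the smallest of the 15. At each of the 15 regions both CT libraries lay above both PT libraries, as the rule for naming them required. All 15 were also called higher in MC than in MP, and 14 higher in CL than in PL, comparisons that use other libraries. Of all regions, 12.1% and 4.63% were called higher in these comparisons.

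The 15 largest falls, regions more open after polyI:C than after CpG, ranged from -3.11 to -2.31, and all 15 were held. The first lay 31.5 kb from Grm5, a glutamate receptor gene, at chr7:88166524-88167025, with 0.29 and 0.71 log2 CPM in CT, against 3.14 and 4.08 in PT (log2 difference -3.11, SE 0.35, limma adjusted p = 2.7e-08). Some belonged to interferon-induced genes. Beside Gbp4, a guanylate-binding protein gene, accessibility was 1.51 and 0.98 log2 CPM in CT, against 3.70 and 4.22 in PT (log2 difference -2.72, SE 0.32). Inside Cmpk2, a mitochondrial nucleotide kinase gene next to Rsad2, it was -0.29 and 0.17 log2 CPM in CT, against 2.44 and 2.08 in PT (log2 difference -2.32, SE 0.40), on 4 reads in CT and 36 in PT.

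The other 12 falls were at Ctps2, Arhgap24, Arfgef1, Art3, Bank1, Gda, Rad21, Sp3, Rabgap1l, Etv6, Fhit and Kcna2. The region of Bank1, a B cell adaptor gene, had 1.29 and 1.66 log2 CPM in CT, against 3.72 and 4.18 in PT. That in Etv6, an ETS family repressor, had 1.70 and 1.21 log2 CPM in CT, against 3.61 and 3.97 in PT. All 15 falls were also called lower in MC than in MP, and 13 lower in CL than in PL, against 9.99% and 4.81% of all regions. Nothing in the assignment shows which gene such a region regulates, since it names only the nearest protein-coding gene within 50 kb.

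**Figure D2:**
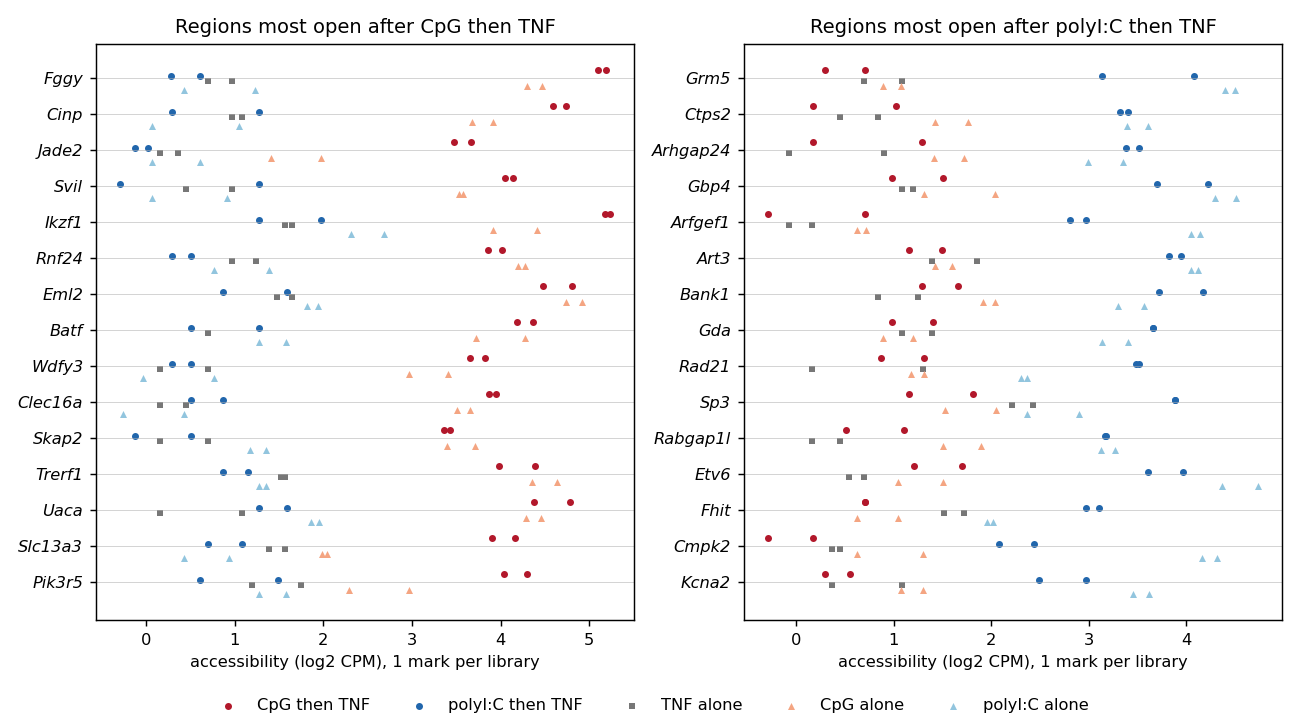
Accessibility (log2 CPM, x axis) of the 15 largest rises (left) and 15 largest falls (right) of CT against PT, 1 row per region named by its gene, 1 mark per library. CpG then TNF (dark red circles) and polyI:C then TNF (dark blue circles) do not overlap in any row, and TNF alone (grey squares), CpG alone and polyI:C alone (triangles) are drawn for reference.

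Antiviral genes were more often lower than higher in CT. Of 213 regions at interferon-stimulated antiviral genes, 69 were lower in CT (32.4%, against 15.4% of all regions) and 9 were higher (4.23%, against 18% of all regions). Held calls were 43 lower and 3 higher, and the median log2 difference was -0.31, against 0.02 for all regions. The median was -0.24 without PT replicate 1 and -0.35 without PT replicate 2. The summed level of the list was 3391 and 3343 CPM in CT, against 4305 and 3954 CPM in PT.

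Rsad2, which encodes the antiviral enzyme viperin, had 7 of its 13 regions lower in CT, all of them held. A region near 1 end of the gene had 2.51 and 2.75 log2 CPM in CT, against 5.16 and 4.59 in PT, with MT libraries at 1.19 and 0.90 (log2 difference -2.25, SE 0.29, limma adjusted p = 2.8e-07). Both groups were thus above TNF alone, and PT was the higher. At Ifi44, an interferon-induced cytoplasmic protein gene, a region over the gene end had 1.95 and 2.71 log2 CPM in CT, against 3.85 and 4.36 in PT (log2 difference -1.77, SE 0.25). At Isg20, an exonuclease gene, it had 5.04 and 4.82 log2 CPM in CT, against 5.84 and 5.98 in PT (log2 difference -0.98, SE 0.13).

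Several other members had regions that were lower in CT. These were Ifit2 with 6 of 8 regions (3 held), Ifih1 with 6 of 7 (2 held), Herc6 with 5 of 7 (3 held), Gbp5 with 4 of 9 (2 held), Aim2 with 4 of 14 (3 held), Ifi44 with 3 of 3 (2 held) and Ifit1bl1 with 3 of 4 (3 held). The Oas2, Oas3, Rnf213, Rtp4 and Slfn genes had none. The gene-end regions of the chemokine gene Cxcl10 (-0.28, SE 0.14, limma adjusted p = 0.13) and of the interferon regulator Irf7 (-0.21, SE 0.19, limma adjusted p = 0.40) did not pass. Those of Ifit3 (-0.51, SE 0.17) and Ccl5 (-0.81, SE 0.26) passed with both PT libraries, but without PT replicate 1 the adjusted p was 0.189 at Ifit3 and 0.426 at Ccl5.

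Usp18, whose product removes ISG15 from proteins and restrains the interferon receptor, had a region that went the other way. Inside the gene, 4.06 kb from its end, accessibility was 4.40 and 4.26 log2 CPM in CT, against 2.59 and 1.86 in PT (log2 difference 2.10, SE 0.24, limma adjusted p = 4.8e-08). The region over its gene end had 4.94 and 4.88 log2 CPM in CT, against 5.26 and 5.01 in PT, a difference of -0.22 (SE 0.14, limma adjusted p = 0.20). The internal region was also open in MC (5.02 and 5.15 log2 CPM) and lower in MP (2.31 and 2.36).

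Some differences lay over promoters, so their letters can be read. Of the promoter windows listed by RefSeq for GRCm38.p6, which run from 250 bases before to 50 after each gene start, 8900 lay under a region of the data. The ISRE pattern, GAAA, any 2 bases, GAAA, was searched on both strands. Matches were allowed to overlap each other and those of the other patterns. It occurred in 3.44% of all 32851 windows and in 3.26% of those under a region. Among windows under held regions it occurred in 12 of 380 where CT was higher (3.16%) and in 27 of 274 where CT was lower (9.85%). The AP-1 pattern TGANTCA occurred in 6.05% and 12.0% of these windows, against 5.85% under any region, and the kappa B pattern, GGGA, any 4 bases, CC, in 26.3% and 29.2%, against 27.1%. Of all windows, 7.81% held the AP-1 pattern and 20.7% the kappa B pattern. Under all called regions the ISRE pattern occurred in 2.26% of windows where CT was higher and 5.11% where it was lower, the AP-1 pattern in 5.28% and 7.12%, and the kappa B pattern in 28.3% and 24.9%. These shares are descriptions of letters and do not show binding.

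Stretches of 5 promoters at which CT was lower and that hold the ISRE letters are printed to show where those letters sit, each 5′ to 3′ on the gene's own strand, from RefSeq (GRCm38.p6). They were chosen after their values had been seen. Capitals mark the ISRE pattern or its reverse complement, TTTC, any 2 bases, TTTC.
Isg15, chr4:156200845-156200926, minus strand: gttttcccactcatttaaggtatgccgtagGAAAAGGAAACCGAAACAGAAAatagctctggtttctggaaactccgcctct
Irgm1, chr11:48871421-48871480, minus strand: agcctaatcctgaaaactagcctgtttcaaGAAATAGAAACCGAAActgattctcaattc
Rsad2, chr12:26456533-26456602, minus strand: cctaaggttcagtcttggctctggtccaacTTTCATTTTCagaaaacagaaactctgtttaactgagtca
Ifit1bl1, chr19:34599428-34599480, minus strand: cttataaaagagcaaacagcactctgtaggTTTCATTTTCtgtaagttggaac
Cybb, chrX:9469325-9469522, minus strand: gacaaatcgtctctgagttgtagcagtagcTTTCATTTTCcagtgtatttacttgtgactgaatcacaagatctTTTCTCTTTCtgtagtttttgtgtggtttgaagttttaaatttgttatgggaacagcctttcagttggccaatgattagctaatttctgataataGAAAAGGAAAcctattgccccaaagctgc

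The 5 promoters had modest differences that were all held. Over the Isg15 promoter, which precedes a ubiquitin-like modifier gene and whose stretch holds 3 overlapping matches, accessibility was 4.16 and 4.07 log2 CPM in CT, against 4.85 and 4.61 in PT (log2 difference -0.62, SE 0.18). Over that of Irgm1, an immunity-related GTPase gene, it was 4.35 and 4.56 log2 CPM in CT, against 5.21 and 5.31 in PT (-0.81, SE 0.16). At Cybb, which encodes the catalytic subunit of the phagocyte NADPH oxidase, it was 2.91 and 2.82 log2 CPM in CT, against 3.63 and 4.00 in PT (-0.95, SE 0.21). The differences over the Rsad2 and Ifit1bl1 promoters were -0.48 (SE 0.13) and -1.02 (SE 0.27), and the groups did not overlap at either. At all 5, both MP libraries lay above both MC libraries, as at Isg15 with 4.60 and 4.30 log2 CPM in MC, against 5.36 and 5.51 in MP. The share of all regions with this order was not counted, so it describes these chosen promoters only.

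The other direction is shown by 3 promoters at which CT was higher, with the kappa B pattern or its reverse complement (GG, any 4 bases, TCCC) in capitals. They too were chosen after their values had been seen. The pattern occurred in 26.3% of windows under held regions higher in CT, against 29.2% where CT was lower and 27.1% under any region. Under all called regions these shares were 28.3% and 24.9%.
Marco, chr1:120505025-120505083, minus strand: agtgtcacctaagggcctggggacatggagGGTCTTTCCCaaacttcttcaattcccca
Cp, chr3:19957073-19957142, plus strand: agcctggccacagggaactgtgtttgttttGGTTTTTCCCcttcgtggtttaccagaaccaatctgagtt
Socs3, chr11:117969424-117969493, minus strand: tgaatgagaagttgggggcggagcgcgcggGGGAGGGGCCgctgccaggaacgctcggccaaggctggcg

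At the promoter of Marco, a scavenger receptor for bacteria, accessibility was 3.89 and 4.39 log2 CPM in CT, against 1.85 and 2.59 in PT (log2 difference 1.91, SE 0.26). At that of Cp, which encodes the copper carrier ceruloplasmin, it was 3.83 and 4.18 log2 CPM in CT, against 2.01 and 2.59 in PT (1.70, SE 0.25). The promoter of Lcn2, which encodes the iron-trapping protein lipocalin-2 and held none of the patterns searched, had 3.09 and 3.81 log2 CPM in CT, against 0.28 and 1.73 in PT (2.44, SE 0.34). At all 3 promoters the groups did not overlap.

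Socs3, which encodes an inhibitor of JAK kinases downstream of cytokine receptors, was higher in CT at all 11 of its regions, 9 of them held. Its promoter region had 5.58 and 6.01 log2 CPM in CT, against 4.42 and 4.15 in PT (log2 difference 1.51, SE 0.16, limma adjusted p = 4.4e-09). In MP it had 5.87 and 5.64 log2 CPM and in MT 4.77 and 4.67, so the PT libraries were below polyI:C alone and below TNF alone. This gene supplied 11 of the 39 regions higher in CT among the 163 of the list of interferon receptors, JAK-STAT and IRF factors, in which 13 were lower. These are 23.9% and 7.97% of the list, against 18% and 15.4% of all regions, with 18 higher and 6 lower held. In that list 4 of 7 regions of Ifnar2, a chain of the type I interferon receptor, rose (2 held, one by 0.88, SE 0.17), and so did 5 of 11 of the macrophage regulator Irf8 (3 held). Regions of Jak1, a kinase of interferon and cytokine receptors, fell (4 of 14, 2 held), one with 3.70 and 3.64 log2 CPM in CT, against 4.60 and 4.78 in PT (-1.02, SE 0.17).

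The gene ends of both sensors had lower mean accessibility in CT, and that of Tlr3 passed the test. At Tlr3, the polyI:C receptor, accessibility was 4.41 and 4.55 log2 CPM in CT, against 5.06 and 5.36 in PT (log2 difference -0.73, SE 0.15, limma adjusted p = 4.3e-04). At Tlr9, the CpG receptor, it was 4.37 and 4.26 log2 CPM in CT, against 4.74 and 4.61 in PT, and the difference of -0.36 (SE 0.16) did not pass (limma adjusted p = 0.082). Of 84 regions at genes of endosomal and cytosolic RNA sensing, 10 were higher in CT (11.9%, against 18% of all regions) and 15 lower (17.9%, against 15.4%), with 1 and 8 held. The list's median was -0.15 with both PT libraries and 0.03 without PT replicate 1. Beside Ifih1, the sensor of polyI:C in the cytosol, a region had 1.29 and 0.71 log2 CPM in CT, against 2.93 and 2.66 in PT (-1.80, SE 0.36), whereas a region in Mavs, the adaptor that Ifih1 uses, had 3.63 and 3.85 log2 CPM in CT, against 2.49 and 2.52 in PT (1.23, SE 0.23).

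In the list of CpG sensing and MyD88 signalling, 27 of 134 regions were higher in CT and 16 lower, with 9 and 7 held (20.1% and 11.9% called, against 18% and 15.4% of all regions). The members moved apart. Irak2, a kinase of the MyD88 complex, had 6 of 17 regions higher (2 held), one with 4.58 and 4.83 log2 CPM in CT, against 3.17 and 1.97 in PT (log2 difference 2.13, SE 0.25). Irak3, which dampens that complex, had 4 of 14 higher (1 held) and 1 lower (0 held), and the held region had 4.19 and 4.27 log2 CPM in CT, against 2.14 and 2.44 in PT (1.94, SE 0.25). Irak4, the kinase that starts the cascade, had 4 of 5 regions lower (2 held), and Tlr4, the LPS receptor, had 5 of 11 lower (2 held). No region of either was higher.

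Of the 94 regions at TNF receptor signalling genes, 28 were higher in CT (29.8%, against 18% of all regions) and 7 lower (7.45%, against 15.4%), with 13 and 4 held. The median was 0.13 with both PT libraries, 0.28 without PT replicate 1 and -0.01 without PT replicate 2. Inside Tnfrsf1b, the second TNF receptor, a region had 4.67 and 4.45 log2 CPM in CT, against 2.89 and 2.66 in PT (log2 difference 1.78, SE 0.21), while the region at its gene end did not pass (-0.19, SE 0.16, limma adjusted p = 0.35). Inside Birc3, a ubiquitin ligase of the TNF receptor complex, a region had 4.00 and 4.09 log2 CPM in CT, against 1.39 and 2.18 in PT (2.26, SE 0.30). Map3k14, the kinase of the noncanonical NF-kB route, had 6 of 7 regions higher (2 held) and Map3k5, a stress kinase, 5 of 11 (3 held).

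At genes of NF-kB subunits and feedback inhibitors, more regions were higher than lower in CT. Of 249 regions, 83 were higher (33.3%, against 18% of all regions) and 13 lower (5.22%, against 15.4%), with 36 and 5 held, and a median of 0.33. A region 21.4 kb from Nfkbia, which encodes the NF-kB inhibitor IkBa, had 4.41 and 4.39 log2 CPM in CT, against 1.39 and 1.86 in PT, with MT at 0.97 and 0.69 (log2 difference 2.78, SE 0.27, limma adjusted p = 7.6e-10). The region over the Nfkbia gene end had 6.04 and 6.33 log2 CPM in CT, against 6.42 and 6.00 in PT, and did not pass (-0.03, SE 0.13, limma adjusted p = 0.89). At Tnfaip3, which encodes the deubiquitinase A20, 4 of 14 regions were higher (1 held). Its gene-end region rose by 0.43 (SE 0.14, limma adjusted p = 0.016) but was lost without PT replicate 2 (adjusted p = 0.201) and without CT replicate 2 (adjusted p = 0.154). Dusp1, a phosphatase that switches off p38 and JNK, had 9 of 11 regions higher (3 held), and Zfp36, which encodes the mRNA decay factor tristetraprolin, had 5 of 5 (1 held).

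Inflammatory cytokines and effectors split by gene. Of 209 regions, 65 were higher in CT (31.1%, against 18% of all regions) and 35 lower (16.7%, near the 15.4% of all regions). Held calls were 36 higher (17.2%, against 7.09%) and 15 lower (7.18%, against 5.84%). Il1b had 6 of 7 regions higher (5 held), one 3.93 kb from the gene with 4.17 and 3.93 log2 CPM in CT, against 2.59 and 2.18 in PT (log2 difference 1.67, SE 0.20). Saa3, an acute-phase protein gene, had 4 of 4 higher (3 held), with 3.74 and 3.70 log2 CPM at its gene end in CT, against 1.49 and 1.97 in PT (1.99, SE 0.27). A region in Fpr1, the receptor for bacterial formyl peptides, had 4.58 and 4.51 log2 CPM in CT, against 1.93 and 2.08 in PT (2.54, SE 0.22).

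Some other genes of this list had more regions lower than higher in CT. Il15, whose product sustains NK cells and memory T cells, had 9 of 14 regions lower, 7 of them held, and none higher. Acod1, the itaconate-producing enzyme gene, had 11 of 22 regions lower and 2 higher, of which 3 and 2 were held, and its gene-end region had 5.20 and 5.14 log2 CPM in CT, against 5.68 and 5.58 in PT (log2 difference -0.46, SE 0.13). At the gene end of Tnf itself, accessibility was 4.66 and 5.10 log2 CPM in CT, against 4.26 and 4.48 in PT (0.51, SE 0.15, limma adjusted p = 0.010), and the call was lost without CT replicate 2 (adjusted p = 0.286). Those of Il6 (0.28, SE 0.15, limma adjusted p = 0.14), Il12b (0.39, SE 0.16, limma adjusted p = 0.052) and Il10 (-0.19, SE 0.15, limma adjusted p = 0.32) did not pass.

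AP-1 and immediate early factors resembled the NF-kB genes in their counts, with 74 of 254 regions higher in CT (29.1%) and 11 lower (4.33%), and 33 and 8 held. The called shares of all regions were 18% and 15.4%. Batf had 8 of 8 regions higher, 4 of them held, and Fos had 11 of 16, 3 of them held. The Fos gene-end region had 4.54 and 4.95 log2 CPM in CT, against 4.57 and 3.48 in PT, so the groups overlapped and the rise of 0.72 (SE 0.21, limma adjusted p = 0.0075) was lost without PT replicate 2 (adjusted p = 0.573) and without CT replicate 2 (adjusted p = 0.161). A region 32.4 kb from Klf6, a zinc finger factor of inflammatory macrophages, had 5.76 and 5.66 log2 CPM in CT, against 3.20 and 3.36 in PT (2.43, SE 0.17, limma adjusted p = 4.6e-13). Jun and Jund had no called region.

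Macrophage lineage genes were higher in CT at 88 of 239 regions (36.8%, against 18% of all regions) and lower at 5 (2.09%, against 15.4%), with 39 held higher and 0 held lower. Runx1, a haematopoietic regulator, was higher at 13 of 25 regions (6 held), Zeb2, which maintains tissue macrophages, at 9 of 20 (5 held), and Sirpa, the receptor that restrains phagocytosis, at 9 of 10 (6 held). A Sirpa region had 4.31 and 4.62 log2 CPM in CT, against 3.26 and 2.08 in PT (log2 difference 1.79, SE 0.22). In this list PT replicate 2 lay below PT replicate 1, and the median of 0.33 was 0.46 without PT replicate 1 and 0.23 without PT replicate 2. The gene-end regions of Csf1r (0.01, SE 0.15), Spi1 (0.24, SE 0.14), Adgre1 (-0.07, SE 0.15) and Mertk (0.20, SE 0.19) did not pass, while that of the integrin gene Itgam rose, with 4.84 and 4.95 log2 CPM in CT, against 4.12 and 3.91 in PT (0.87, SE 0.16).

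Chromatin regulators of enhancers gave 55 of 160 regions higher in CT (34.4%) and 8 lower (5%), with 26 held higher and 0 held lower. Kdm6b, the H3K27 demethylase gene, was higher at 6 of 6 regions, 4 of them held. Inside Tet3, which encodes a 5-methylcytosine oxidase, a region had 5.12 and 5.17 log2 CPM in CT, against 2.81 and 2.52 in PT (log2 difference 2.48, SE 0.25). Ribosomal protein genes, included as a list unrelated to either agent, gave 22 of 47 regions higher (46.8%) and 3 lower (6.38%), against 18% and 15.4% of all regions, and 4 and 1 were held. The called share higher in CT exceeded those of the NF-kB, AP-1, lineage and chromatin lists, and the held share (8.51%) was below theirs. At this list the median was 0.40 with both PT libraries, 0.53 without PT replicate 1 and 0.24 without PT replicate 2, and PT replicate 2 lay below PT replicate 1 there too.

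Metabolic and presentation lists had call shares nearer to those of all regions. Cholesterol and lipid handling genes were higher at 32 of 159 regions (20.1%, against 18% of all regions) and lower at 12 (7.55%, against 15.4%), with 14 and 3 held, and Abca1, the cholesterol exporter gene, had a region with 4.46 and 4.27 log2 CPM in CT, against 2.33 and 2.08 in PT (log2 difference 2.16, SE 0.26). Alternative activation and growth signalling genes were higher at 34 of 143 (23.8%) and lower at 19 (13.3%), with 12 and 8 held. Among them Pparg was higher at 5 of 8 (2 held), and Pdgfc lower at 7 of 13 (4 held) and higher at 2 (0 held). Antigen presentation and costimulation genes were higher at 18 of 120 (15%) and lower at 15 (12.5%). Held calls were 6 higher (5%) and 8 lower (6.67%), near the 7.09% and 5.84% of all regions. Within that list, the costimulatory gene Cd86 had 4 of 11 regions lower (2 held), one with 3.83 and 4.16 log2 CPM in CT, against 5.10 and 5.19 in PT (-1.15, SE 0.17), and a region near Pdcd1lg2, the gene of the inhibitory ligand PD-L2, had 5.00 and 5.10 log2 CPM in CT, against 3.51 and 3.23 in PT (1.68, SE 0.18).

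**Figure D3:**
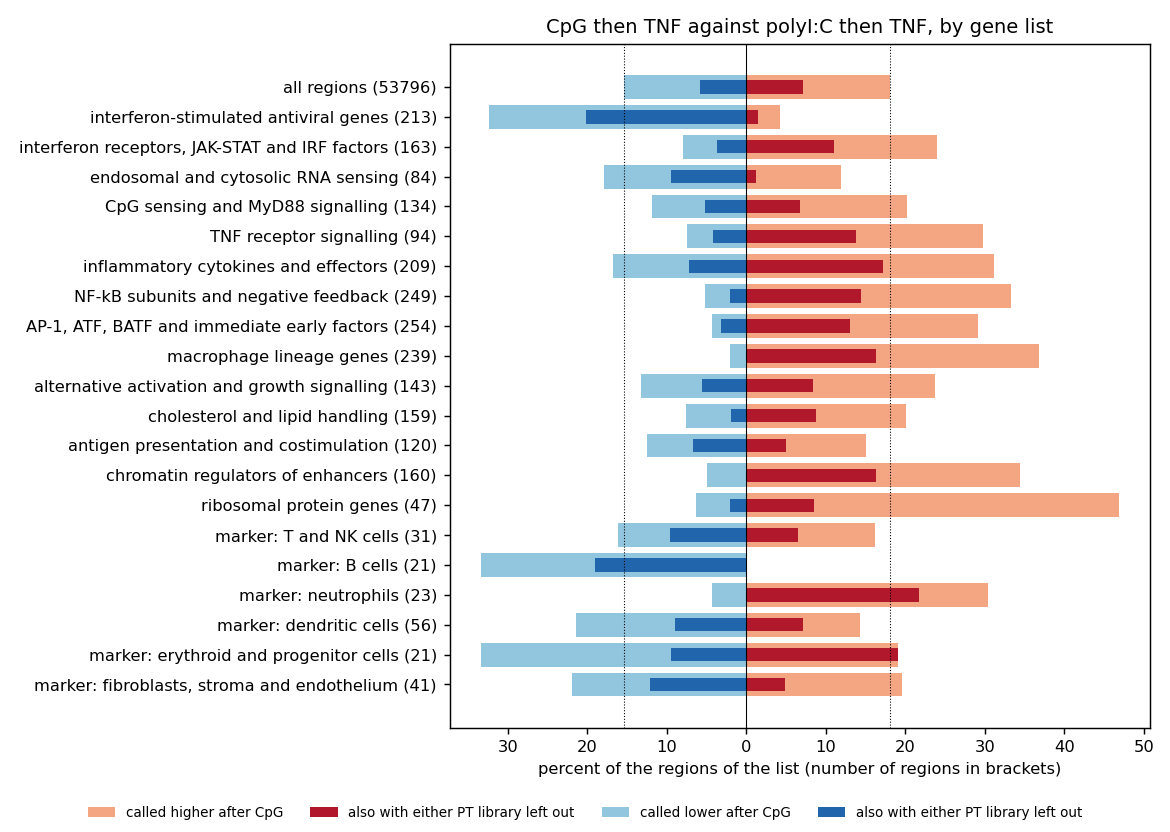
Percent of the regions of each gene list that were called higher (right, light red) or lower (left, light blue) in CT than in PT, with the held share as the inner dark bars and the number of regions in brackets. Dotted lines mark the shares of all 53796 regions. Antiviral genes and B cell and erythroid markers reach farthest left (32.4% of regions for antiviral genes), and ribosomal protein genes, with few held calls, and macrophage lineage genes (36.8%) farthest right.

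Among regions near markers of other cell types, the shares called are set against 18% higher and 15.4% lower over all regions. Neutrophil markers had 7 of 23 regions higher in CT (30.4%, 5 held) and 1 lower (4.35%, 0 held), with a summed level of 381 and 390 CPM in CT, against 284 and 278 in PT. The held rises were at S100a8 (log2 difference 1.14, SE 0.17), Prtn3, Camp, Mmp9 and 19.0 kb from Csf3r (1.62, SE 0.16). A rise at Mmp8 was not held, and the region that was lower lay at Ltf. B cell markers had 7 of 21 regions lower (33.3%, 4 held) and 0 higher, with 240 and 223 CPM in CT, against 275 and 309 in PT. Dendritic cell markers had 8 of 56 higher (14.3%, 4 held) and 12 lower (21.4%, 5 held), with summed levels of 821 and 813 CPM in CT, against 847 and 924 in PT. T and NK cell markers had 5 of 31 in each direction (16.1%, 2 held higher and 3 lower), with 541 and 508 CPM in CT, against 502 and 544 in PT. Erythroid and progenitor markers had 4 of 21 higher (19%, 4 held) and 7 lower (33.3%, 2 held), with 361 and 338 CPM in CT, against 372 and 436 in PT. Those of fibroblasts, stroma and endothelium had 8 of 41 higher (19.5%, 2 held) and 9 lower (21.95%, 5 held), with 644 and 668 CPM in CT, against 692 and 665 in PT. No region had 0 reads in either CT library, and 1 and 3 of all regions had 0 reads in PT replicates 1 and 2. Accessibility near a gene is no measure of its expression, and the part of other cells in these results was not tested.

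The direction between the agents can be set against libraries that the comparison does not use. CpG alone against polyI:C alone (MC minus MP) gave 22.1% of all regions called, with 12.1% higher and 9.99% lower. The 2 MP libraries agreed within sampling noise (chi-square per region 1.00, p = 0.293), and with their mean counted as 1 sample these shares were 12.7%, 7.47% and 5.2%. Of the 3812 held regions higher in CT, 1955 were also higher in MC than in MP (51.3%) and 20 were lower, or 1524 (40.0%) and 4 with MP as 1 sample. Of the 3141 held regions lower in CT, 1441 were lower in MC than in MP (45.9%) and 25 were higher, or 1008 (32.1%) and 6 with MP as 1 sample.

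With LPS in place of TNF as the second stimulus, CL minus PL gave 9.43% of all regions called, with 4.63% higher and 4.81% lower. Of the held regions higher in CT, 1245 were higher in CL than in PL (32.7%) and 1 was lower, and of those lower in CT, 1255 were lower in CL (40.0%) and 0 were higher. Across all regions the CT minus PT difference correlated with CL minus PL at 0.638 (0.5285 without PT replicate 1 and 0.696 without PT replicate 2) and with MC minus MP at 0.524 (0.400 and 0.616). The agent had been added 4 h before collection in MC and MP and 8 h before it in CT and PT. Time and TNF therefore cannot be told apart in the values for MC minus MP, while CL and PL match CT and PT in time. Regions are not independent replicates, and these values describe the libraries only.

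**Figure D4:**
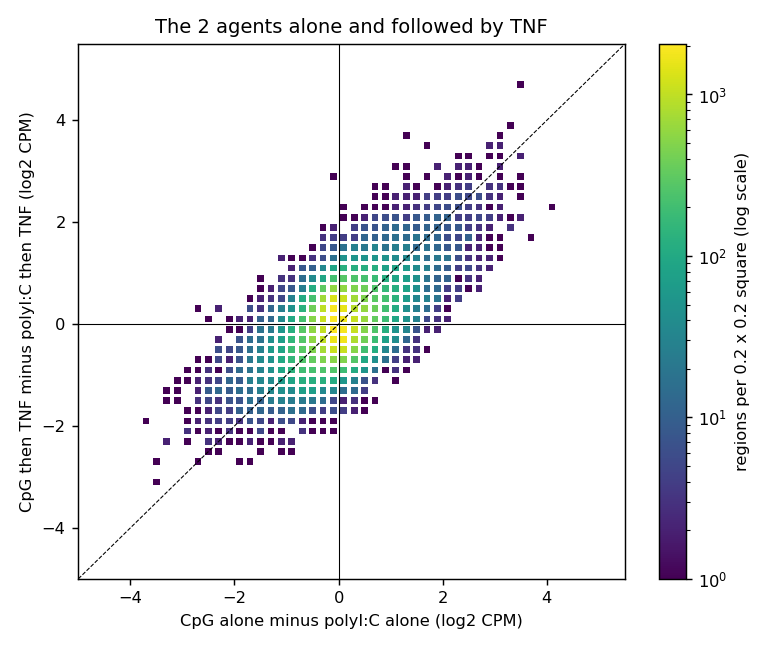
CT minus PT (y axis) against MC minus MP (x axis), both in log2 CPM, over 53796 regions in squares coloured by the number of regions on a log scale. The cloud runs along the dashed line of equal values (Pearson correlation across regions 0.524), with some regions high on the y axis and near 0 on the x axis.

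Median levels of the held sets are described next. The 3812 held regions higher in CT had medians of 4.22 and 4.31 log2 CPM in CT, against 3.29 and 3.13 in PT, with 3.74 and 3.69 in MT and 3.705 and 3.71 in MM. The CT medians were above, and the PT medians below, those of TNF alone and medium, an order that the choice of the set favours. The 3141 held regions lower in CT had medians of 3.37 and 3.19 log2 CPM in CT, against 4.23 and 4.36 in PT, with 3.52 and 3.60 in MT and 3.36 and 3.37 in MM. In this set CL libraries had 3.47 and 3.43 log2 CPM, against 4.04 and 4.06 in PL. Since CT and PT values chose the sets, their own medians are descriptions, and the MT and MM levels are given only for scale.

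**Figure D5:**
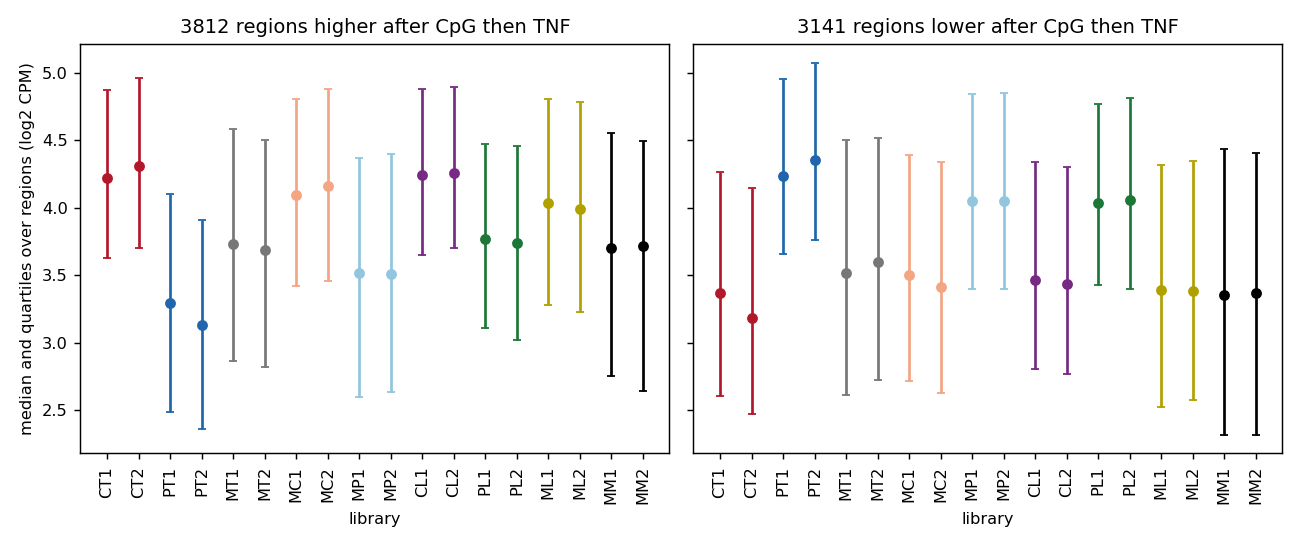
Median (point) and quartiles (bars) of accessibility in log2 CPM for each library over the 3812 held regions higher in CT (left) and the 3141 lower in CT (right). CT and PT chose the sets, and CL lies above PL on the left and below it on the right.

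Each primed state was also compared with TNF alone, and these comparisons share the MT libraries with each other and the CT or PT libraries with the comparison above. CT differed from MT at 17.4% of regions, 6029 higher (11.2%) and 3326 lower (6.18%), and PT differed from MT at 29%, 8403 higher (15.6%) and 7215 lower (13.4%). At antiviral genes, CT was above MT at 81 of 213 regions and below at 4 (median 0.36), and PT was above MT at 121 and below at 1 (median 0.66). At NF-kB genes, CT was above MT at 62 of 249 regions and below at 11 (median 0.13), and PT was above at 28 and below at 51 (median -0.15). At macrophage lineage genes, CT was above MT at 49 of 239 and below at 12, and PT was above at 28 and below at 56. The antiviral list thus had more regions above than below TNF alone after either agent. The NF-kB and lineage lists had more above than below after CpG, and more below than above after polyI:C. This was not particular to them. AP-1 genes had 39 above and 13 below after CpG, and 17 and 56 after polyI:C, of 254 regions. Chromatin regulators had 26 and 10, and 14 and 36, of 160. Ribosomal protein genes, the list unrelated to either agent, had 3 and 2, and 2 and 15, of 47.

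The CT minus PT difference was also tested against the corresponding differences. It differed from MC minus MP at 11.5% of regions (6.06% more positive and 5.41% more negative), or at 2.95% with MP as 1 sample (1.51% and 1.44%). It differed from CL minus PL at 0.859% of regions (0.701% and 0.158%).

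By position, gene ends (within 1 kb) held 16.6% of the held regions higher in CT and 13.5% of those lower in CT, against 24.9% of all regions. Sites over 50 kb from any protein-coding gene were 8.24% of those higher and 15.2% of those lower, against 9.21% of all regions. These shares were not tested. At the sites over 50 kb away, PT replicate 2 minus PT replicate 1 had a median of 0.15, against -0.004 over all regions. For CT replicate 2 minus CT replicate 1 it was -0.08, against -0.008. The part of these shifts in the shares was not tested. By gene, held regions higher in CT numbered 10 of 39 at Asap1, 9 of 21 at Lyn and 9 of 18 at Thada. They numbered 9 of 14 at Ggta1 and at Trerf1, 9 of 13 at Wdfy2 and 9 of 11 at Socs3. Asap1 also had 1 held region lower. Those lower in CT numbered 9 of 17 at Sestd1, 7 of 23 at Plxna2 and 7 of 16 at Sh3glb1. At Il15 they were 7 of 14 and at Rsad2 7 of 13. These genes were picked by their counts, and the held shares of all regions were 7.09% higher and 5.84% lower.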

How the data were processed

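The submitters' processing notes name, without settings, Bowtie2 (2.2.5), SAMtools (1.9), Picard, MACS3 (3.0.0b1), featureCounts and the mouse build mm10 (GRCm38). The authors deposited log2 CPM for 53796 regions of 501 bases. Taking a mean prior of 3 reads, every value (100%) came back as a whole number of reads to 0.01, and 0 reads equals -0.70. The prior understates differences at regions with few reads. Voom on these recovered reads called 17674 regions.

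With limma 3.58.1 in R 4.3.3, 9 group means were estimated from the log2 values with a variance trend (9 residual and 29.09 prior degrees of freedom), and p-values were adjusted over all regions with a threshold of 0.05. The median SE was 0.205 for CT minus PT and 0.29 for a difference of differences. Genes came from RefSeq GRCm38.p6: the nearest protein-coding body within 50 kb (48840 regions, 13771 genes). The 20 lists hold 495 genes, 444 of them with a region. The members and lists were chosen with earlier results of these data known. Named regions were the 15 largest rises and falls (groups not overlapping, higher mean at least 1 log2 CPM, 1 per gene, no predicted genes), at most 4 called per list by lowest p, and a single region for each of 28 fixed genes and for macrophage markers. The text names some of these, and regions over promoters chosen after their values were seen. Replicate numbers are not stated to pair samples, and no block entered. Simulated reads served to test the code. Alternatives covered normalization, filtering, variance model, samples fitted, blocks, gene assignment and each library left out. Matplotlib 3.10.9 drew the plots. Some results are not reported here.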

Additional observations from a re-analysis of the deposited data

Results flagged for a closer look

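The CT minus PT difference was itself compared with the same difference in other libraries, and the results that differed are listed here for the largest differences, the fixed genes and the other regions named above. Against MC minus MP, regions are listed if they passed with the MP libraries counted as 2 samples and as 1. Against the agents alone, (CT minus PT) minus (MC minus MP) was called at 6171 regions (11.5%), or at 1587 (2.95%) with the 2 MP libraries counted as 1 sample. Single libraries moved this count: it was 15485 without PT replicate 1, 1702 without PT replicate 2, 1082 without CT replicate 2, 1322 without MC replicate 1, and 2413 and 2326 without MP replicates 1 and 2. The time since the first agent differs between these pairs, 8 h in CT and PT and 4 h in MC and MP, and cannot be told apart from the addition of TNF. Against LPS as the second stimulus, where the times match, (CT minus PT) minus (CL minus PL) was called at 462 regions (0.859%), 377 higher and 85 lower. This count was 8887 without PT replicate 1, 150 without PT replicate 2, 58 without CT replicate 2, 59 and 139 without CL replicates 1 and 2, and 82 and 122 without PL replicates 1 and 2.

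Among the largest rises, which were chosen for a large CT minus PT difference that is part of these contrasts, the excess over MC minus MP was 2.27 at Jade2, 1.92 at Ikzf1, 1.81 at Slc13a3 and 1.92 at Pik3r5, on the log2 scale. Fggy (1.14) and, among the falls, Sp3 (-1.56) passed only with MP as 2 samples. The excess over CL minus PL was 3.32 at Fggy, 3.03 at Batf, 2.60 at Eml2, 2.55 at Jade2, 2.34 at Uaca, 2.27 at Cinp, 1.97 at Wdfy3, 1.80 at Skap2, 1.63 at Trerf1 and 1.48 at Ikzf1. At Batf the CL libraries had 4.24 and 4.56 log2 CPM, against 3.96 and 4.14 in PL. At Fggy they had 5.12 and 5.25 log2 CPM, against 3.81 and 3.79 in PL. At both regions the PL libraries were well above the PT libraries, which had 0.50 and 1.28 log2 CPM at Batf and 0.28 and 0.60 at Fggy.

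Among the fixed genes, the excess over MC minus MP was 1.22 at the Socs3 promoter, 1.00 at Cd40 and 0.93 at Il6. At Il6, CT minus PT itself did not pass and MC minus MP was negative. The excess over CL minus PL was 1.18 at the Socs3 promoter, 1.03 at Il1b and 0.85 at a second Batf region. Among other regions named above, the excess over CL minus PL was 2.17 at the distal Nfkbia region, 1.80 at Sirpa, 1.60 at Irak2, 1.42 at Klf6, 1.20 at the Il1b region nearer the gene, 1.00 at Csf3r and 0.97 at Pdcd1lg2. The excess over MC minus MP was 1.10 at the Mertk gene end, where CT minus PT itself did not pass and MC minus MP was negative.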

How the results depend on the processing

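The direction of CT minus PT changed at 0 of the 124 named regions that were called, under any alternative run, and at 6 of the 16 that were not called (Irf1, Irf7, Il10, Nfkbia, Csf1r and Adgre1 gene ends). Counts of called regions depended on how the spread was estimated and on single libraries. The CT minus PT count was 10198 (5747 higher, 4451 lower) with library weights and 8063 (4239 higher, 3824 lower) with only CT and PT fitted. With the replicate block it was 17758, with the replicate block and only CT and PT it was 5230 (2862 higher, 2368 lower), and with crossed pairing of the CT and PT numbers, whose deviations correlated at -0.358, it was 19312. The last 2 settings, and MP as 1 sample, were chosen after seeing the data, and the data do not establish a pairing. With 1 library left out, the count ran from 7891 to 22708, with 4523 to 12359 higher and 3368 to 10349 lower. The remaining library of a pair was then assumed to vary like the other groups.

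Among the other comparisons, leaving out 1 library gave 5169 to 6455 regions for CT minus MT (9355 with all), 8559 to 19706 for PT minus MT (15618), 7388 to 8018 for MC minus MP (11898) and 1784 to 2241 for CL minus PL (5075). It gave 1082 to 15485 for CT minus PT against MC minus MP and 58 to 8887 against CL minus PL. Dropping regions under the 25th percentile of mean level gave 6062 for CT minus MT, 7883 for MC minus MP and 3098 for CL minus PL. For PT minus MT, library weights gave 8516 and the compared groups alone 7560. For MC minus MP, MP as 1 sample gave 6815. For CL minus PL, quantile normalization gave 7671 and the compared groups alone 8159. Against MC minus MP, the count was 2821 without a variance trend, 1561 with the compared groups alone and 1587 with MP as 1 sample. Against CL minus PL, it was 834 with quantile normalization, 121 without a trend, 241 with library weights, 118 with the compared groups alone and 265 with MP as 1 sample. The causes of these shifts were not tested. Depth limits regions with few reads, where the prior holds values together.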
